A study of Mus musculus with 10 samples.

Results

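This account covers 35 genes of epithelial adhesion to the basement membrane: 21 integrin chains, 10 laminin chains, the hemidesmosome proteins Col17a1, Dst and Plec, and the tetraspanin Cd151. They were taken by symbol, from a list grouped by protein role, out of 23973 gene symbols measured in sorted mouse mammary epithelial cells. All 35 symbols were found.

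Integrins are receptors made of 1 alpha and 1 beta chain, and the pair sets what they bind: laminin, collagen, fibronectin and other proteins with the RGD motif, or latent TGF-beta. Laminins are cross-shaped trimers of an alpha, a beta and a gamma chain that form the sheet of the basement membrane. Hemidesmosomes anchor an epithelial cell to that sheet: integrin alpha6beta4 and Col17a1 span the membrane and bind laminin made of Lama3, Lamb3 and a gamma chain, while Plec and Dst tie them to keratin filaments inside. In the mammary duct, basal myoepithelial cells lie on the basement membrane, and luminal cells line the lumen above them.

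The study sorted mammary cells from female mice whose Bptf gene, which encodes the largest subunit of a chromatin remodelling complex, was wild type (WT) or knocked out (KO). There are 2 libraries in each of 5 groups: WT luminal, KO luminal, WT myoepithelial, KO myoepithelial and, from KO mice, a population the labels name Bsecs without spelling it out. Tamoxifen, 15 mg per kg in total, was given before the cells were taken, in all groups. Their age, the knockout allele, what drives any recombinase and the sorting antibodies are absent from the sources used here. The beta1 and alpha6 integrins are common sorting antigens for mammary cells, so whether the sort acted on Itgb1 and Itga6 is not known.

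The deposited tables hold 1 column of normalised reads per group, not 1 per library, with nothing on whether both libraries of a group were pooled in it. Whole reads were recovered from them for 5 distinct columns, with totals from 2036681 to 3840462. The basal (myoepithelial) columns carry opposite genotype names in different tables. They are therefore called the larger and the smaller basal column, by total, and no genotype effect is read from them. For the KO luminal libraries the title says KO and the source field names WT mice, so that group is called the KO-labelled luminal column. Bptf itself, counted over the whole gene, was at 571.5 normalised reads in the WT luminal and 735.8 in the KO-labelled luminal column. It was at 679.6 in Bsecs, with 750.0 in the larger basal and 557.6 in the smaller basal column. Bptf was thus not lower in the KO-labelled luminal column or in Bsecs than in the WT luminal column. Reads over the whole gene do not check the labels.

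Most lineage markers were higher in the lineage that the labels name: of the fixed lists, 10 of 12 luminal markers were higher and 10 of 10 basal markers lower in luminal than basal columns (edgeR test described further on). An exception was Esr1, the estrogen receptor, at 320 and 434 in the luminal columns, 28.8 in the larger basal and 947 in the smaller basal column. The summed level of 10 basal myoepithelial markers was 182 in the WT luminal column, 705 in the KO-labelled luminal column, 17563 in Bsecs, with 24780.0 in the larger basal and 45700 in the smaller basal column. The summed level of 12 luminal markers, in the same order, was 67419, 75635, 50539, 861 and 2152. Bsecs held a part of either set. Most of the basal sum in Bsecs came from the basal keratins Krt14 (8945), Krt17 (5008) and Krt5 (3307). By edgeR, 6 of the 10 basal markers (Cnn1, Actg2, Oxtr, Myh11, Acta2 and Mylk) were lower in Bsecs than in basal columns, 0 higher. Myh11, a smooth muscle myosin, was at 20.0 against 4061 or more in the basal columns. Against the luminal columns, 5 of the 10 basal markers were higher in Bsecs and 0 lower. Of the 12 luminal markers, 7 were higher in Bsecs than in basal columns and 0 lower. Of the luminal sum in Bsecs, 39058 came from the claudin Cldn4, while 5 of the 12 luminal markers (Csn3, Prlr, Wfdc18, Krt18 and Krt8) were lower in Bsecs than in luminal columns, none was higher, and Kit was at 0. In sorted cells read in bulk, fewer cells of a type and less RNA per cell cannot be told apart.

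Col17a1, Lamb3 and Itgb6 were among the members higher in Bsecs than in luminal cells, as given further on, and the 250 bases before their starts are shown for that reason, 5′ to 3′ on the gene's strand. The sequences are RefSeq promoter windows of build GRCm38.p6, in which 24 of the 35 members were found. Capitals mark the letters TATAAA, the core of a TATA box.
Col17a1, chr19:47692043-47692292, minus strand: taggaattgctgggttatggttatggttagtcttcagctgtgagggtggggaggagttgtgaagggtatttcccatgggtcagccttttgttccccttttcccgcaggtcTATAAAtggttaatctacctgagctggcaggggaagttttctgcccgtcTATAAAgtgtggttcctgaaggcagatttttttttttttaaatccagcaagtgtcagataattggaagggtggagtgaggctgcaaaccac
Lamb3, chr1:193301744-193301993, plus strand: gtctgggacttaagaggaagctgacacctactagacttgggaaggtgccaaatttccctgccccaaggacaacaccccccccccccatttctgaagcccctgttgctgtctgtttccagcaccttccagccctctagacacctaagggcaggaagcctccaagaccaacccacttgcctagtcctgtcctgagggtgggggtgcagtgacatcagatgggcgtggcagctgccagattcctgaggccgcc
Itgb6, chr2:60722604-60722853, minus strand: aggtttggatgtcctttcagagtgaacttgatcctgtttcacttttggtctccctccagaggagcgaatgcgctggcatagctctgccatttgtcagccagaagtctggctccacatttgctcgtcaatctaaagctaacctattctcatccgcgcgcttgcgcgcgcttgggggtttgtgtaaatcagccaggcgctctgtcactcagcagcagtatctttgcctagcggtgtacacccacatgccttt

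The Col17a1 window was the only 1 of 29 member windows with TATAAA on either strand, and held it at 140 and 91 bases before the start. That motif occurs in 12.4% of all 32851 windows of the same length. The AP-1 motif TGANTCA was in 0 of the 29 member windows and 6.75% of all windows. The TEAD motif GGAATG was in 3 of 29 and 12.6% of all, and the E-box CAGGTG in 10 of 29 and 17.2% of all. A pair of p53 family cores, CATG and CATG with 6 bases between, was in 0 of 29 and 0.49% of all. None of these 4 motifs lies in the 3 windows shown. Lamb3 and Itgb6 have a second window each in that table, not shown, with GGAATG and CAGGTG for Lamb3 and CAGGTG for Itgb6.

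Levels are given on 1 common scale over the 5 columns, as normalised reads. Where values are given in pairs, the WT luminal column precedes the KO-labelled luminal one, and the larger basal column the smaller. Of the 35 genes, 28 reached 50 normalised reads in at least 1 column. Among those 28, the highest level lay in Bsecs for 9, in the smaller basal column for 9, in the larger basal column for 7, in the KO-labelled luminal column for 2 and in the WT luminal column for 1. That tally was not made over all genes, so it cannot be read as particular to these 28. The other 7, Itga7, Itga10, Itga2b, Itga4, Itgb2, Itgb7 and Lamc3, were below 50 in every column and lay between 0 and 34.5. They include the chains of leukocyte integrins, and 12 leukocyte markers summed to 18.3 to 158 normalised reads.

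**Figure D1:**
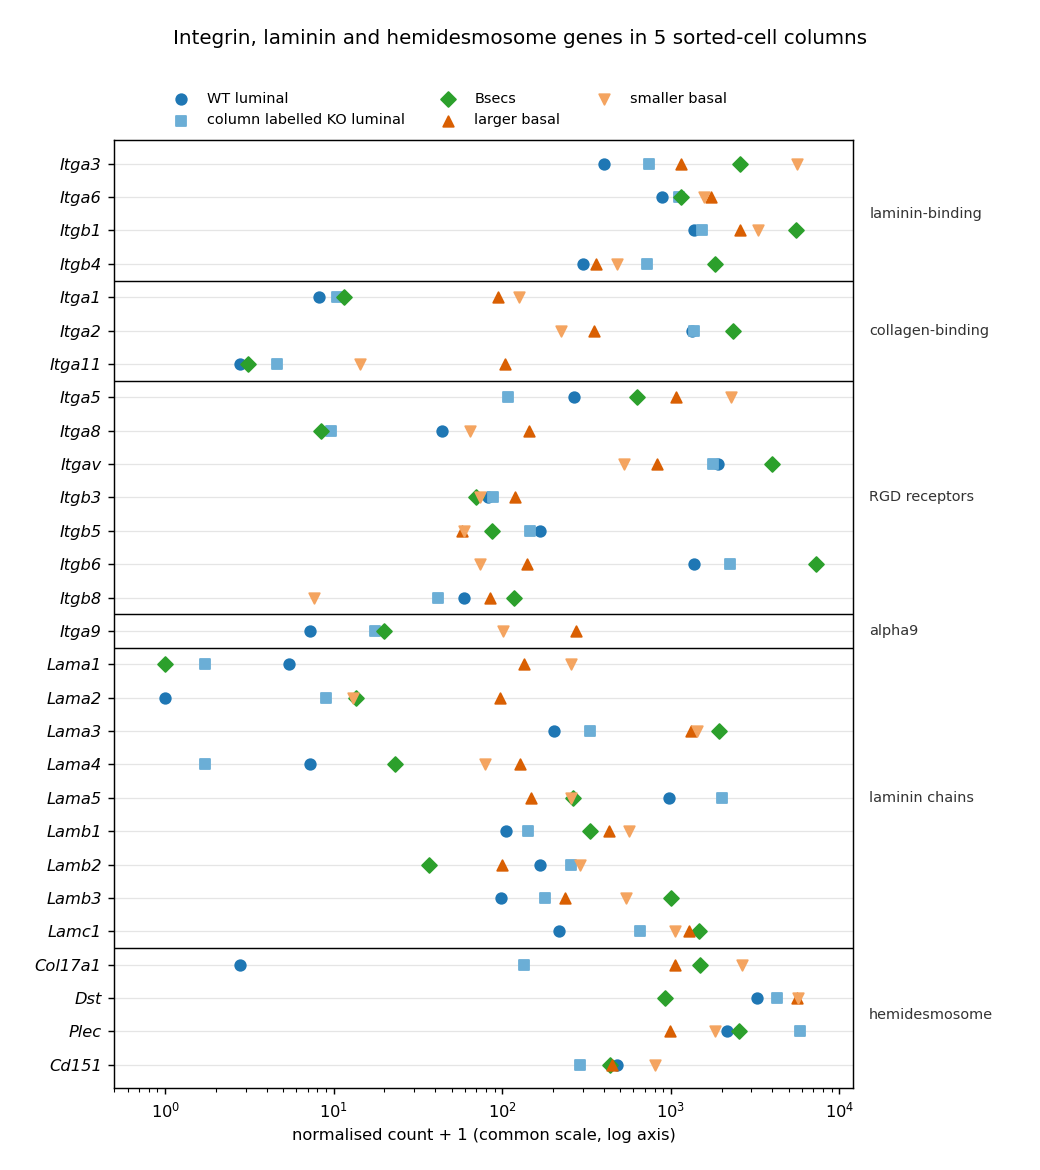
Normalised reads plus 1 (log axis, common scale) of the 28 members that reached 50 in a column, grouped by protein role. Each point is 1 deposited column. Itgb6 and Itga2 are high in the luminal columns and Bsecs, Lama5 is high in the luminal columns only, and Col17a1 lies at 1.79 in the WT luminal column and at 1058 or more in Bsecs and both basal columns.

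Lineages were compared with edgeR's quasi-likelihood test on the recovered reads, with 2 luminal columns, 2 basal columns and 1 Bsecs column. The columns of a lineage differ in labelled genotype, so the spread in this test includes that difference. The single Bsecs column was assumed to vary like the others. In the luminal over the basal columns 13 of the 33 members tested passed an adjusted p of 0.05, 3 higher and 10 lower in luminal cells, where 13% of all 12254 genes passed (7.74% higher and 5.31% lower). The median log2 fold was -0.87 over the 33 members and 0.08 over all genes tested. Bsecs over the basal columns gave 4 higher and 2 lower members, where 4.43% of all genes passed (2.73% higher and 1.71% lower). Bsecs over the luminal columns gave 6 higher and 1 lower, where 4.87% of all genes passed (2.49% higher and 2.38% lower). In all, 18 members passed in at least 1 of these 3 comparisons.

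Of the laminin-binding integrin chains, Itga3 separated the lineages, and Itgb1 and Itgb4 were highest in Bsecs. Itga3, the alpha chain of the laminin receptor alpha3beta1, was at 402 in the WT luminal column, 743 in the KO-labelled luminal column, 2584 in Bsecs, with 1150.1 in the larger basal and 5566 in the smaller basal column. The luminal and basal columns did not overlap, and Itga3 was lower in luminal than basal columns by a log2 fold of -2.50 ± 0.59 (SE; edgeR adjusted p = 0.00271). Bsecs lay between the basal columns and above the luminal ones by 2.19 ± 0.66 (SE; edgeR adjusted p = 0.0453). The luminal call rested on the smaller basal column: without it the log2 fold was -1.02 (adjusted p = 0.297), and without the WT luminal column -2.12 (adjusted p = 0.0761). The Bsecs call was lost without the WT luminal column (1.82, adjusted p = 0.365) and with DESeq2 (adjusted p = 0.0745).

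Itgb1, the beta chain shared by most matrix receptors, was at 1362 and 1531 in the luminal columns, 5524 in Bsecs, with 2582 and 3309 in the larger and smaller basal column. Bsecs were highest, above the luminal columns by 1.95 ± 0.58 (SE; edgeR adjusted p = 0.0410). Without the WT luminal or the KO-labelled luminal column that call was lost (adjusted p = 0.350 and 0.207), as it was with totals without Rn45s as the scale (0.0662). Itgb4, the hemidesmosome beta chain, was at 301 and 724 in the luminal columns, 1831 in Bsecs, with 357 and 478 in basal columns. The luminal and basal ranges overlapped. Bsecs exceeded the basal columns by 2.18 ± 0.62 (SE; edgeR adjusted p = 0.0313), which did not hold without the larger basal column (adjusted p = 0.0858) or with totals without Rn45s (0.0653).

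Itga6, the partner of Itgb4, varied least among these chains, at 881 and 1110.2 in the luminal columns, 1153 in Bsecs, with 1720.3 and 1569 in basal columns. It passed in none of the 3 comparisons, with a log2 fold of -0.70 ± 0.50 (SE) for luminal over basal. Per exon kilobase, Itga3 made up 27.2% of the reads of the laminin-binding alpha chains in the WT luminal column, 35.7% in the KO-labelled luminal column, 64.7% in Bsecs, with 35.5% in the larger basal and 74.6% in the smaller basal column. Itga6 supplied most of the remainder, so which of these chains led differed between the basal columns. The Itgb4 exons overlap a gene on the opposite strand, and whether counting used strand is not stated in those sources. That also holds for Cd151, Dst, Itga8, Lama2 and Lama3, and the Itga1 exons overlap a gene on the same strand.

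Among collagen-binding chains, luminal cells and Bsecs held RNA of Itga2 nearly alone, whereas the basal columns also held Itga1 and Itga11. Itga2, the alpha chain of the collagen receptor alpha2beta1, was at 1341 and 1377 in the luminal columns, 2344 in Bsecs, with 350.0 and 222 in basal columns. All 3 other columns stood above both basal ones. Itga2 was higher than in the basal columns by 2.27 ± 0.53 (SE; edgeR adjusted p = 0.00235) in the luminal columns and by 3.07 ± 0.60 (SE; edgeR adjusted p = 0.000752) in Bsecs. Both calls held under every alternative tried, at 1.94 to 2.68 and 2.74 to 3.49. Its share of collagen-binding alpha chains per exon kilobase was 98.9% and 99.0% in the luminal columns, 99.5% in Bsecs, with 60.4% in the larger basal and 68.9% in the smaller basal column.

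Itga1, another collagen receptor chain, was at 7.14 and 9.40 in the luminal columns, 10.5 in Bsecs, with 93.3 and 125 in basal columns. Its luminal over basal log2 fold was -3.66 ± 0.96 (SE; edgeR adjusted p = 0.00719). Without either luminal column the adjusted p was 0.0991 or 0.0709. Itga11, a collagen receptor chain best known from fibroblasts, was at 1.79 and 3.61 in the luminal columns, 2.11 in Bsecs, with 103 in the larger basal and 13.3 in the smaller basal column. The larger basal column thus stood apart. The luminal over basal fold of Itga11 (-4.36 ± 1.34, SE; edgeR adjusted p = 0.0242) fell to -2.17 (adjusted p = 0.622) without that column, and without the WT luminal and the KO-labelled luminal column the adjusted p was 0.213 and 0.130. The larger basal column also held the most fibroblast marker RNA: 8 markers summed to 2364 there, 568 in the smaller basal column, 840.2 and 992 in the luminal columns and 347 in Bsecs. Dcn alone was at 775 and 983 in the luminal columns, 198 in Bsecs, with 1297 and 130 in basal columns. The luminal sums thus came almost wholly from Dcn. The other 7 markers were all lower in luminal than basal columns by edgeR. The part of fibroblasts in the Itga11 level was not tested.

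The RGD and fibronectin receptor chains differed between lineages in both directions, with the beta6 chain higher in luminal and the alpha5 chain higher in basal columns. Itgb6, whose pair with alphaV activates latent TGF-beta and is known from epithelia, was at 1364 in the WT luminal column, 2251 in the KO-labelled luminal column, 7232 in Bsecs, with 138 in the larger basal and 73.0 in the smaller basal column. The 3 populations did not overlap. Itgb6 was above the basal columns by 4.11 ± 0.58 (SE; edgeR adjusted p = 1.98e-06) in luminal cells and by 6.12 ± 0.67 (SE; edgeR adjusted p = 8.38e-08) in Bsecs, and both calls held under every alternative, at 3.69 to 4.69 and 5.70 to 6.71. The step from luminal columns to Bsecs (2.02 ± 0.60, SE; edgeR adjusted p = 0.0420) was less firm. It was lost without the WT luminal column (adjusted p = 0.422), without the KO-labelled luminal column (0.0889) and with totals without Rn45s (0.0593).

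Itgav, the alphaV chain that partners Itgb6, was at 1902 and 1765 in the luminal columns, 3966 in Bsecs, with 823 and 529.7 in basal columns. Bsecs exceeded the basal columns by 2.59 ± 0.59 (SE; edgeR adjusted p = 0.00436), and by 2.25 to 2.99 under every alternative. The luminal over basal fold of Itgav was 1.46 ± 0.51 (SE; edgeR adjusted p = 0.0531), which missed the threshold. Of the beta chains that can pair with alphaV, counted per exon kilobase, Itgb6 made up 34.5% and 44.5% in the luminal columns, 44.3% in Bsecs, with 3.06% in the larger basal and 1.32% in the smaller basal column. Itgb1 made up 90.6% and 95.3% in those basal columns.

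Itga5, the alpha chain of the fibronectin receptor alpha5beta1, ran the other way. It was at 267 and 107 in the luminal columns, 630.1 in Bsecs, with 1075 and 2266 in basal columns, an order with no overlap between populations. The luminal over basal log2 fold was -3.11 ± 0.58 (SE; edgeR adjusted p = 0.000155) and held under every alternative, at -3.92 to -2.54. Itga8, an RGD receptor chain known from smooth muscle, was at 42.9 and 8.67 in the luminal columns, 7.38 in Bsecs, with 142 and 63.7 in basal columns, and passed in none of the 3 comparisons. The remaining beta chains also passed in none. Itgb5 ranged from 56.7 in the larger basal to 166 in the WT luminal column, Itgb3 from 68.5 in Bsecs to 118 in the larger basal column, and Itgb8 from 6.64 in the smaller basal column to 116 in Bsecs.

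Itga9, whose pair with beta1 binds tenascin-C and other matrix ligands, was at 6.25 and 16.6 in the luminal columns, 19.0 in Bsecs, with 272 in the larger basal and 99.6 in the smaller basal column. Both basal columns stood above the other 3, with a luminal over basal log2 fold of -3.99 ± 0.85 (SE; edgeR adjusted p = 0.000863) that held under every alternative, at -4.83 to -3.03. The other chains grouped with it, Itga4, Itgb2 and Itgb7, stayed below 50 in every column.

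**Figure D2:**
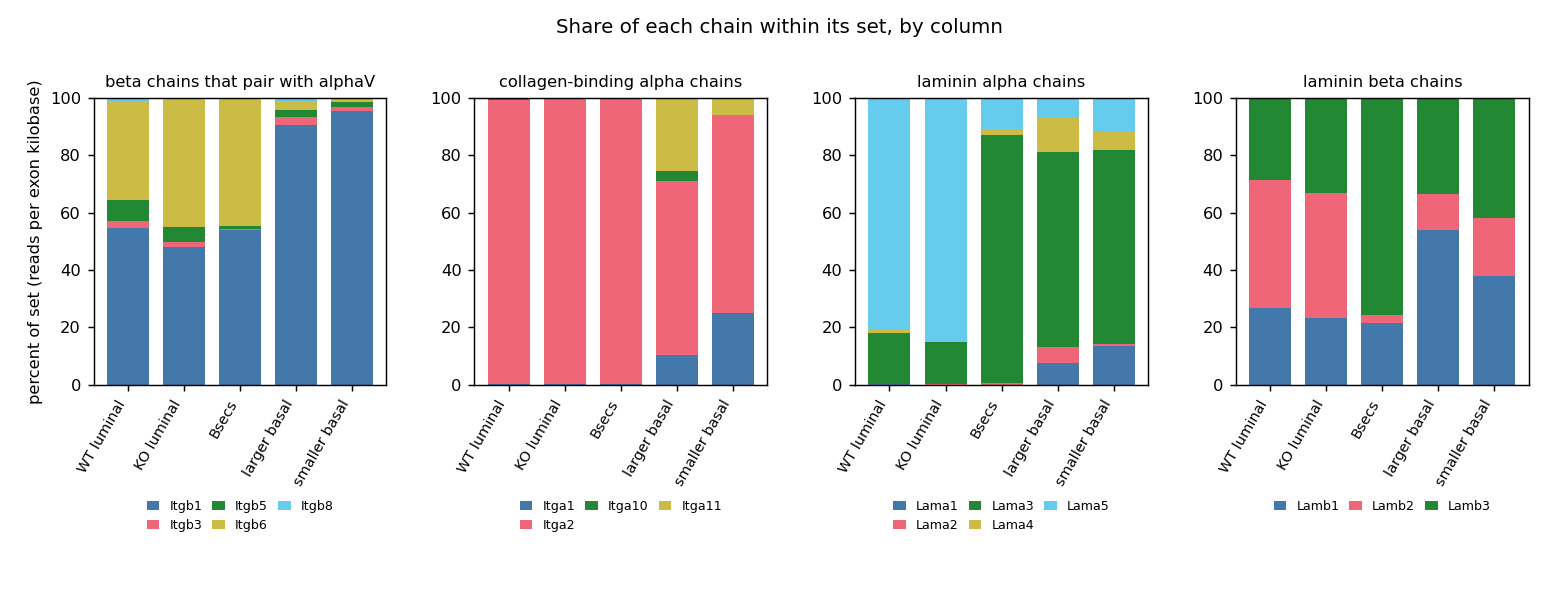
Share of each chain within its set, in percent of reads per exon kilobase, for 4 sets in the 5 columns (1 bar per column, colours for chains). Itgb6 takes 34.5% to 44.5% of the alphaV-partner beta chains in the luminal columns and Bsecs and 1.32% to 3.06% in the basal columns, and Lama5 gives way to Lama3 outside the luminal columns.

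Laminin alpha chains divided by lineage, and Bsecs lay near the basal columns for Lama3 and Lama5 but not for Lama1. Lama5, the alpha chain of the widespread laminins of adult basement membranes, was at 972 in the WT luminal column, 2014 in the KO-labelled luminal column, 263 in Bsecs, with 147 in the larger basal and 256 in the smaller basal column. Both luminal columns lay above the other 3. Luminal cells exceeded basal ones by 2.93 ± 0.57 (SE; edgeR adjusted p = 0.000237), and by 2.30 to 3.36 under every alternative, and Bsecs were below luminal cells by -2.49 ± 0.73 (SE; edgeR adjusted p = 0.0390). Without the KO-labelled luminal column the difference from Bsecs was -1.91 (adjusted p = 0.265).

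Lama3, the alpha chain of the hemidesmosome-anchoring laminin, was at 202 and 328 in the luminal columns, 1931 in Bsecs, with 1310 and 1419 in basal columns. Luminal columns were lower than basal ones by -2.33 ± 0.53 (SE; edgeR adjusted p = 0.00176) and Bsecs were above luminal columns by 2.88 ± 0.60 (SE; edgeR adjusted p = 0.00231). Both calls were lost without the WT luminal column, at adjusted p = 0.0879 and 0.0852. Per exon kilobase, Lama5 made up 80.8% and 84.9% of laminin alpha chains in the luminal columns, and Lama3 67.9% and 67.6% in the basal columns and 86.5% in Bsecs.

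Lama1, an alpha chain of embryonic and ductal basement membranes, was read mainly in the basal columns, at 133 and 254 against 4.46 and 0.72 in the luminal columns. Bsecs had 0 Lama1 reads of 3659403. Against a floor of 3 reads, Lama1 was at least 41.8-fold lower in Bsecs than in the larger and at least 80.8-fold lower than in the smaller basal column. The edgeR adjusted p was 0.000537 for Bsecs over basal and 1.82e-05 for luminal over basal (log2 fold -6.17 ± 1.0, SE), and both calls held under every alternative, the latter at -7.80 to -5.36. The myoepithelial contractile marker Myh11 was also low in Bsecs, as given above.

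Lama4 and Lama2 are alpha chains known from vessels, muscle and stroma. Lama4 was at 6.25 and 0.72 in the luminal columns, 22.1 in Bsecs, with 127 and 78.3 in basal columns, a luminal over basal log2 fold of -4.86 ± 1.10 (SE; edgeR adjusted p = 0.00166) that was lost without the KO-labelled luminal column (-3.97, adjusted p = 0.0654). Lama2 was at 0 and 7.95 in the luminal columns, 12.6 in Bsecs, with 96.2 in the larger basal and 11.9 in the smaller basal column, and passed in none of the 3 comparisons. As with Itga11, the larger basal column stood apart for Lama2. The 8 endothelial markers summed to 248 there, 54.4 in the smaller basal column and 2.89 to 14.3 in the other columns, beside the fibroblast sums given above. The part of either cell type was not tested.

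Of the beta and gamma chains, Lamb3 was the one that passed between Bsecs and another population. Lamb3, which pairs with Lama3 in the hemidesmosome-anchoring laminin, was at 97.3 and 177 in the luminal columns, 1006 in Bsecs, with 234 and 543 in basal columns. Bsecs exceeded luminal columns by 2.89 ± 0.65 (SE; edgeR adjusted p = 0.00501), or 2.53 (adjusted p = 0.105) without the WT luminal column. The Bsecs over basal fold was 1.44 ± 0.64 (SE; edgeR adjusted p = 0.282). Lamb2, the beta chain of muscle and kidney laminins, was lowest in Bsecs, at 35.8 against 166 and 253 in the luminal and 98.1 and 287 in the basal columns. It passed in none of the 3 quasi-likelihood comparisons, while the 1-against-1 edgeR exact test at an assumed dispersion called Lamb2 lower in Bsecs than in the smaller basal and the KO-labelled luminal column. Per exon kilobase Lamb3 made up 75.8% of laminin beta chains in Bsecs and 28.6% to 41.8% in the other 4 columns.

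Lamb1, a widespread beta chain, was at 104 and 142 in the luminal columns, 329 in Bsecs, with 429 and 563 in basal columns. It was lower in luminal than basal columns by -1.97 ± 0.56 (SE; edgeR adjusted p = 0.0133), a call lost without the WT luminal (adjusted p = 0.181) or the KO-labelled luminal column (0.0718). Lamc1, the gamma chain of most laminins, was at 215 and 652 in the luminal columns, 1459 in Bsecs, with 1289 and 1057 in basal columns. No comparison of Lamc1 passed, with a luminal over basal log2 fold of -1.41 ± 0.54 (SE; edgeR adjusted p = 0.0845).

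Col17a1, the transmembrane collagen of hemidesmosomes, had the largest range of all members with a read in every column. It was at 1.79 in the WT luminal column (2 reads), 133 in the KO-labelled luminal column (184 reads), 1493 in Bsecs, with 1058 in the larger basal and 2635 in the smaller basal column. The luminal columns lay far below the other 3 and far from each other. Col17a1 was lower in luminal than basal columns by -4.72 ± 0.84 (SE; edgeR adjusted p = 7.26e-05) and higher in Bsecs than in luminal columns by 4.48 ± 0.89 (SE; edgeR adjusted p = 0.00137). DESeq2 gave log2 folds of -4.78 and 4.47 with adjusted p = 0.0917 and 0.299, and all other alternatives kept both calls. The sizes depended on the luminal columns: without the KO-labelled one the folds were -9.88 and 9.58, and without the WT one -3.75 and 3.51.

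The cytoplasmic linkers Dst and Plec had other orders over the columns than Col17a1. Dst, whose epithelial isoform links keratin to hemidesmosomes, was at 3264 and 4253 in the luminal columns, 920 in Bsecs, with 5565 and 5674 in basal columns. It was lowest in Bsecs, below the basal columns by -2.57 ± 0.69 (SE; edgeR adjusted p = 0.0200), and at -2.89 to -2.54 under every alternative. Dst also has neuronal and muscle isoforms, and reads over the whole gene do not separate them. Plec, a linker of keratin to integrin beta4, was at 2139 in the WT luminal column, 5832 in the KO-labelled luminal column, 2522 in Bsecs, with 988 and 1832 in basal columns, with a luminal over basal log2 fold of 1.54 ± 0.54 (SE; edgeR adjusted p = 0.0529). Cd151, a tetraspanin bound to laminin-binding integrins, ranged from 288 to 802 and passed in none of the 3 lineage comparisons.

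**Figure D3:**
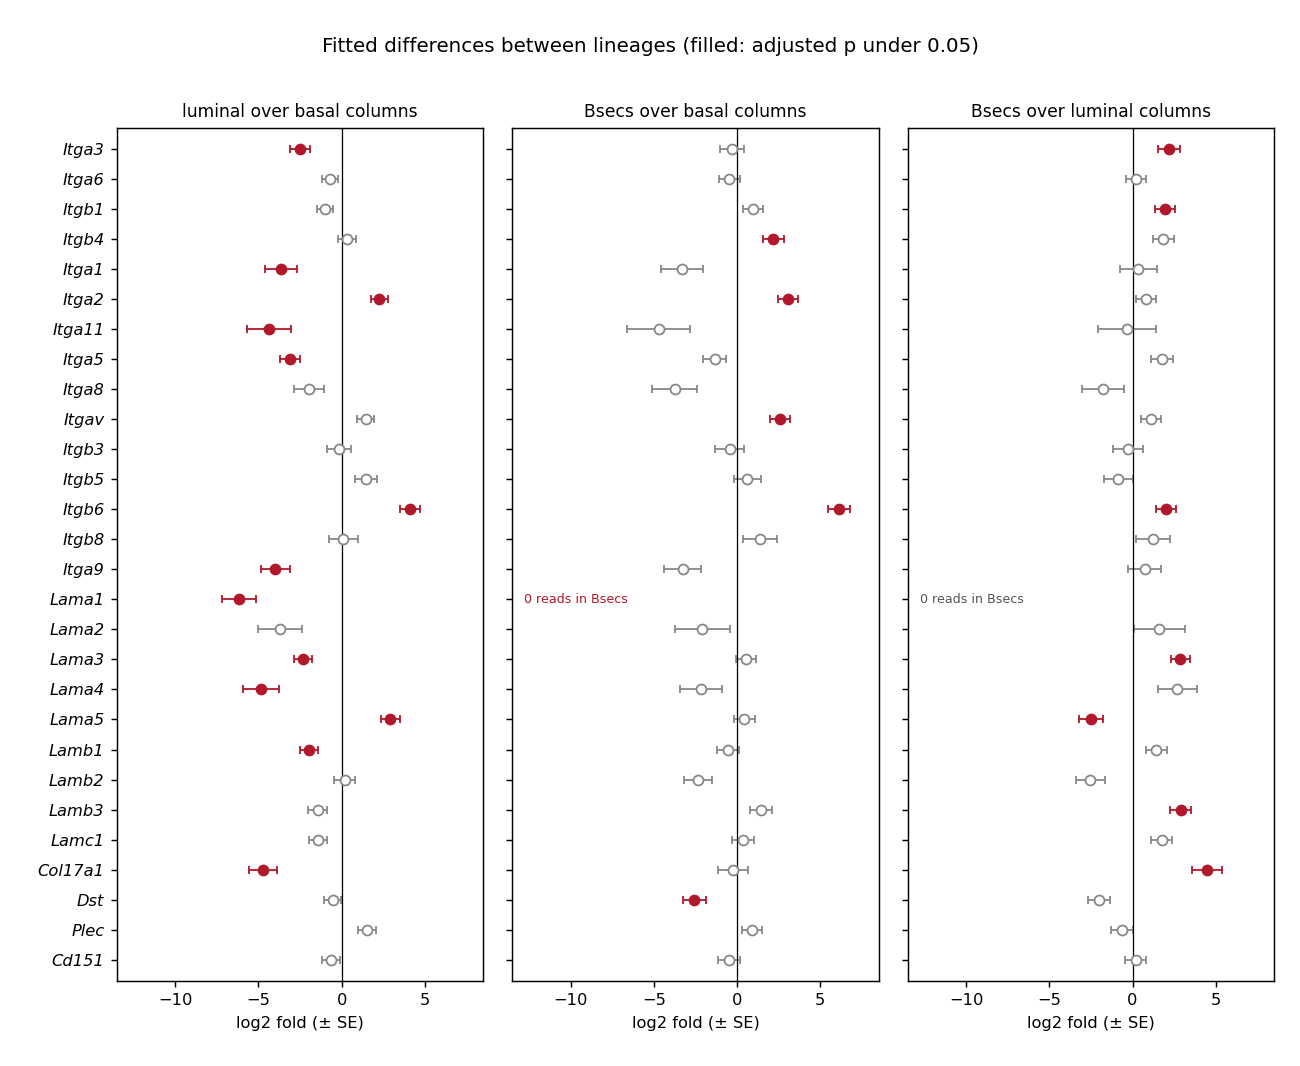
Log2 folds (points) with SE (bars) from edgeR for the 28 members in luminal over basal columns, Bsecs over basal columns and Bsecs over luminal columns. Filled red points passed an adjusted p of 0.05. Lama1 is written, not plotted, in the Bsecs panels because Bsecs had 0 reads. Itgb6 stands to the right in all 3 panels, while Col17a1 and Lama3 lie left of 0 in the first and right of 0 in the third.

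Between the luminal columns, the comparison meant to show the effect of Bptf loss, Col17a1 was the member that passed. By p from the authors' deposited table, which compare 1 column with 1 column and hold no replicate spread, 1 of 33 members had an adjusted p under 0.05, where 0.0882% of all genes did. Col17a1 went from 2 reads in the WT luminal column to 184 in the KO-labelled luminal column, 73.3-fold (95% Clopper-Pearson counting interval 20.0 to 610; adjusted p = 0.0358 in that table). It was also the only 1 of 21 members with a mean of at least 50 that lay 4-fold or more apart, where 4.14% of all such genes did. With a mean of at least 10 that count was 5, adding Itga2b, Itgb7, Itga8 and Itgb2, where 10.8% of all genes with such a mean did.

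The level of Col17a1 in the KO-labelled luminal column was 12.6% of that in the larger and 5.05% of that in the smaller basal column. The 10 basal myoepithelial markers there were at 0% to 16.8% (median 1.16%) of the larger and 0% to 16.6% (median 0.397%) of the smaller basal column, and their sum was 705 against 182 in the WT luminal column. Against the larger column, Krt17 was at 16.8%, Krt14 at 10.3%, the regulator Trp63 at 4.82%, Krt5 at 1.71% and Mylk, a smooth muscle kinase, at 0.185%. Against the smaller column Trp63 was highest, at 16.6%. The part of basal cells in the Col17a1 difference was not tested. Members that did not pass in this comparison lay on both sides: Itga8 was 5.02-fold lower in the KO-labelled luminal column (2.63 to 10.4; 12 reads against 48) and Itga5 2.54-fold lower (2.08 to 3.11). On the other side were Lamc1, 2.98-fold higher in the KO-labelled luminal column (2.58 to 3.45), Plec, 2.68-fold (2.56 to 2.81), Itgb4, 2.37-fold (2.09 to 2.69), and Lama5, 2.04-fold (1.90 to 2.19). The median log2 fold was 0.36 over the 33 members and 0.10 over all genes.

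Between the basal columns 0 of 35 members passed on p from the authors' deposited table, where 0.0274% of all genes did. At an unadjusted p under 0.05 there were 4, a threshold at which the share of all genes was not counted. The edgeR exact test with an assumed dispersion called 1, Itgb8. Of 26 members with a mean of at least 50, Itga3 was 4.91-fold higher (4.60 to 5.24) and Itga11 7.64-fold lower (4.0 to 16.4) in the smaller column, and no other lay 4-fold or more apart, where 5.75% of all such genes did. With a mean of at least 10 that count was 5, adding Itgb2, Itgb8 and Lama2, where 14% of all genes with such a mean did. Itgb8 was 12.4-fold lower (5.13 to 39.2) in the smaller column, on 5 reads against 87. Which of these columns is knockout cannot be told from the tables.

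**Figure D4:**
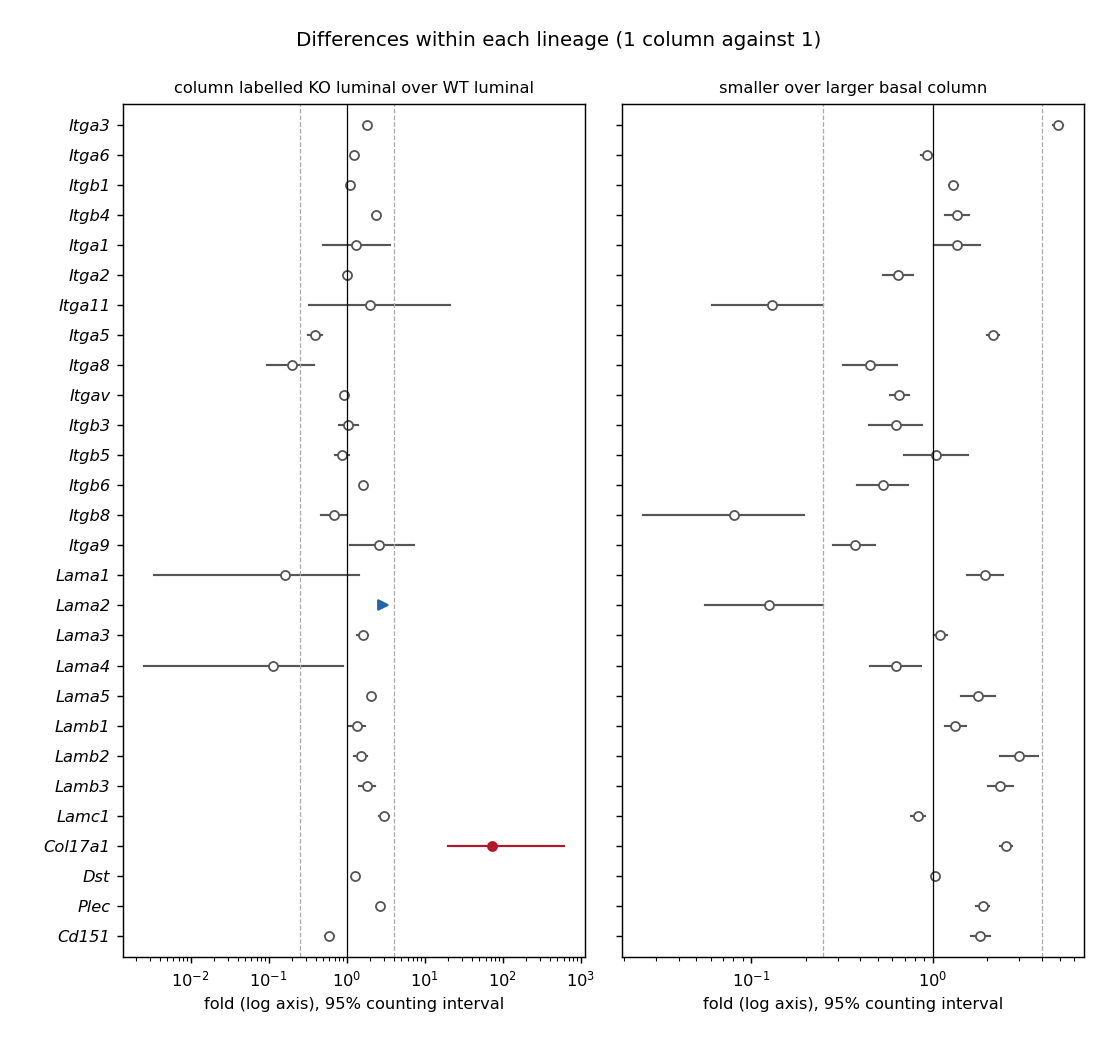
Folds on a log axis with 95% Clopper-Pearson counting intervals for the 28 members, in the KO-labelled luminal column over the WT luminal column (left) and the smaller over the larger basal column (right). The arrow marks a lower bound against a floor of 3 reads, and dashed lines mark 4-fold. Col17a1, filled, stands at 73.3-fold on the left, and Itga3 at 4.91-fold on the right.

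Set against single columns, Bsecs passed for few members on p from the authors' deposited tables. Against the larger basal column 0 members passed (0.48% of all genes), with 5 at an unadjusted p under 0.05 and 9 by the edgeR exact test. Against the smaller basal column Lama1 passed (adjusted p = 0.0105; 0.759% of all genes), against the KO-labelled luminal column 0 (0.0405% of all genes), with 2 at an unadjusted p under 0.05 and 8 by the exact test, and against WT luminal Col17a1 passed, 872-fold higher on 1417 reads against 2 (241 to 7207; adjusted p = 0.00931; 0.21% of all genes). These 4 comparisons share the Bsecs column, and the share of all genes at an unadjusted p was not counted for them. Of all genes, the exact test called 8.53% and 10.2% against the larger and smaller basal and 11.4% and 13.8% against the KO-labelled and WT luminal columns.

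By size, among members with a mean of at least 50, Bsecs stood 4-fold or more above the larger basal column for 5 of 28 (Itgb4, Itga2, Itgav, Itgb6 and Lamb3) and below it for 8 (Itga1, Itga11, Itga8, Itga9, Lama1, Lama2, Lama4 and Dst), where 7.52% and 7.47% of all such genes did (15% in all). Against the smaller basal column it was above for 4 of 24 and below for 5, where 7.05% and 8.11% did (15.2% in all). Among members higher in Bsecs, Itgb6 had the largest fold, 52.4-fold (44.5 to 62.3) above the larger and 98.3-fold (75.4 to 131) above the smaller basal column. Against the KO-labelled luminal column it was above for Itga5, Lama3, Lamb3 and Col17a1 and below for Lama5, Lamb2 and Dst, 7 of 21, where 6.42% and 10.1% of such genes did (16.5% in all). Against WT luminal it was above for 8 of 21 and below for 1, Lamb2, where 9.21% and 9.59% did (18.8% in all). Bsecs held more Rn45s, the ribosomal precursor RNA, than other columns, 32.2% of reads against 9.76% to 16.2%. With totals without Rn45s as the scale, every Bsecs fold moved by a log2 of -0.36 against the larger basal column, where Itgav (3.77-fold) and Lamb3 (3.37-fold) then fell short of 4-fold and 3 members stayed above it, and by -0.20 against the smaller basal column, -0.21 against the KO-labelled luminal and -0.32 against the WT luminal column. On that scale Itga5 joined those below the smaller basal column, making 6, and against WT luminal 7 were above, without Itgb1, and 3 below, with Lama5 and Dst added. The shares of all genes past 4-fold were not counted on that scale, so these counts cannot be set against them.

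The proteins that act beside these receptors and laminins were read from fixed lists. Of 21 integrin adaptors tested, 0 were higher and 4 lower in luminal than basal columns, where 7.74% and 5.31% of all genes were, and the list's median log2 fold was -0.49 against 0.08 over all genes. Tns1, a tensin that joins integrin tails to actin, was at 5.36 and 60.7 in the luminal, 165 in Bsecs, with 667 and 1383 in basal columns (-4.89 ± 0.74, SE; edgeR adjusted p = 5.31e-06). Flna, an actin crosslinker that binds beta tails, was at 1360 and 2401 in the luminal, 7238 in Bsecs, with 6612 and 9738 in basal columns. It was lower in luminal than basal columns (-2.08 ± 0.52, SE; edgeR adjusted p = 0.00445) and higher in Bsecs than in luminal columns (1.96 ± 0.59, SE; edgeR adjusted p = 0.0434), the single adaptor that passed there. Fermt1, the epithelial kindlin, and Tns3 were the other two that were lower in luminal columns. Bsecs over basal columns gave 0 of 21 by edgeR (4.43% of all genes), with 6 at an unadjusted p under 0.05 (14.2% of all genes).

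Of 10 basement membrane partners of laminin tested, 0 were higher and 4 lower in luminal than basal columns, where 7.74% and 5.31% of all genes were, with a median log2 fold of -0.75 against 0.08 over all genes. They were the collagen IV chains Col4a1 and Col4a2, the proteoglycan perlecan (Hspg2) and Col18a1. Col4a2 was at 0.89 and 17.3 in the luminal, 221 in Bsecs, with 920.2 and 901 in basal columns, lower in luminal cells by -6.55 ± 0.78 (SE; edgeR adjusted p = 7.51e-08) and higher in Bsecs than luminal columns by 4.55 ± 0.78 (SE; edgeR adjusted p = 0.000225). Col18a1 was also higher in Bsecs than in luminal columns (3.13 ± 0.68, SE; edgeR adjusted p = 0.00343). Col4a5 went the other way. At 9.48 in Bsecs against 83.0 and 142 in the luminal and 254 and 143 in the basal columns, it was lower than in basal columns by -4.34 ± 1.04 (SE; edgeR adjusted p = 0.00745) and than in luminal columns by -3.54 ± 1.01 (SE; edgeR adjusted p = 0.0319).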

How the data were processed

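RNA of sorted cells was amplified and made into barcoded libraries with Ovation kits, per the labels' protocols. STAR, DESeq and build mm9 are named in the submitters' processing notes. The sources used here do not give versions, counter, annotation, strand setting or sort markers.

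The authors deposited 6 comparison tables with 24000 rows. Per the file headers, each gives a mean normalised signal for either group, their ratio (fold), the log2 of it and 1 p-value per gene. The deposited means were whole reads divided by a size factor (100% of values within 0.01 of a count), so counts were recovered. The deposited log2 and ratio columns were not used, and folds were recomputed. The deposited p-values compare 1 column with 1 column and were adjusted (Benjamini-Hochberg) over all genes that have one. The tables hold 0 columns per library and 0 columns of other origin. Damaged or duplicated symbols (27 rows) entered adjustments only. The deposited p-values thus measure no spread between replicates. The edgeR p-values of the lineage comparisons rest on the spread between columns of a lineage, which includes their difference in labelled genotype. Nothing says that libraries came from separate animals, so the rest of that spread may be technical.

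Common-scale levels used median-of-ratios factors over 5 columns (9776 genes). Levels per kilobase used merged GENCODE M21 exons. Lineages were tested with edgeR 4.0.16 (TMM, filterByExpr, glmQLFit, glmQLFTest; 12254 genes; biological coefficient of variation 0.589, 2 residual degrees of freedom). Reads carry no molecular identifiers and are not independent molecules, so Clopper-Pearson 95% intervals and the floor of 3 reads cover counting error only. On simulated counts the luminal over basal test recovered 42 of 100 genes changed 4-fold and 100 of 100 changed 16-fold, with 3 false calls among 11650 genes. A 1-against-1 exact test, simulated on 15397 genes, recovered 6 and 69 of 100. The counts were simulated at a dispersion of 0.16, which the exact test was also given. That is below the square of the coefficient of variation fitted to the real columns. The simulation therefore does not give the recovery to be had in these columns.

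Members and lists were chosen with earlier results of these data known. Members with at least 50 normalised reads in a column are given in every column, others by range. Of the pathway lists, genes past the adjusted p are named, at most 6 per list, by fold. Alternatives were other scales, filters, tests (DESeq2 1.42.0, edgeR exact test with dispersion 0.16) and leaving out a column.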

Additional observations from a re-analysis of the deposited data

How the results depend on the processing

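No called result changed direction. Some uncalled folds near 1 crossed it with totals without Rn45s as the scale, such as Lama3 in the smaller over the larger basal column (1.10 to 0.979). No paired analysis was possible because the deposited columns carry no replicate number. The deposited p-values hold no spread between replicates, and an edgeR exact test, run at dispersion 0.16, called more members: 1 between the basal columns, 9 for Bsecs against the larger and 9 against the smaller basal column, 8 against the KO-labelled luminal column and 8 against WT luminal. The same test called 2.39%, 8.53%, 10.2%, 11.4% and 13.8% of all genes in those comparisons. Its dispersion was assumed, and lies below the square of the coefficient of variation of 0.589 fitted to these columns. A lower assumed spread gives more calls. Adjusting only over genes with a mean of at least 50 gave 1 member, Lama1, for Bsecs against the larger basal column. With a mean of at least 10 in place of 50, members 4-fold or more apart numbered 5 between the luminal (10.8% of all genes) and 5 between the basal columns (14%). Leaving out 1 column gave 9 to 15 members for luminal over basal, 6 to 9 for Bsecs over basal and 2 to 12 for Bsecs over luminal columns. In that last comparison 2 members, Lama5 and Col17a1, passed without the WT luminal column, and 12 without the larger or without the smaller basal column. The share of all genes called moved with them, from 4.87% to 2.16%, 10% and 9.88%. Of the 26 edgeR calls, 10 were lost without the WT luminal column, 7 without the KO-labelled luminal column, 2 without the larger and 1 without the smaller basal column, 3 with DESeq2 and 3 with totals without Rn45s. No call was lost with median-of-ratios factors, without a filter on low counts, or, of the 13 luminal over basal calls, without Bsecs. The cause of these losses was not tested. Leaving out a column of a lineage leaves 1, assumed to vary like the others. For luminal over basal and for Bsecs over basal, the share of all genes called also changed with the column left out. In both it was highest without the larger basal column, and for luminal over basal it was lowest without the WT luminal column. The ranges of members called therefore cannot be read as particular to the members. Depth limits members near 0 reads, where counting intervals span many fold.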

Other observations

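Ligands and receptors outside the 35 genes also differed. Of 11 other integrin ligands tested, 2 were higher and 6 lower in luminal than basal columns, where 13% of all genes passed in either direction. Of the 6, Col1a1, Col1a2 and Col3a1 also belong to the 8 fibroblast markers, of which 7 were lower in the same comparison, and the part of fibroblasts was not tested. Tnc (tenascin-C), a ligand of alpha9 and alphaV integrins, was at 132 and 232 in the luminal columns, 6534 in Bsecs, with 514 and 299 in the larger and smaller basal column. Bsecs stood above all 4 other columns, by a log2 fold of 4.04 ± 0.62 (SE; edgeR adjusted p = 2.40e-05) over basal and 5.18 ± 0.65 (SE; edgeR adjusted p = 2.92e-06) over luminal columns. Tgfb1, whose latent form alphaVbeta6 binds, was at 19.6 and 89.6 in the luminal, 379 in Bsecs, with 31.7 and 71.7 in basal columns, and was higher in Bsecs than in basal (2.94 ± 0.83, SE; edgeR adjusted p = 0.0290) and luminal columns (2.81 ± 0.82, SE; edgeR adjusted p = 0.0368).

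Fn1 (fibronectin), the ligand of alpha5beta1, was at 8.93 and 47.0 in the luminal columns, 449.9 in Bsecs, with 503 and 1073 in basal columns. Like Itga5 it was lower in luminal than basal columns (-4.75 ± 0.69, SE; edgeR adjusted p = 2.91e-06), and it was higher in Bsecs than in luminal columns (4.0 ± 0.72, SE; edgeR adjusted p = 0.000439). Vcam1, an alpha4beta1 and alpha9beta1 ligand, was at 12.5 and 13.0 in the luminal columns, 360.3 in Bsecs, with 2828 and 988 in basal columns. Spp1 (osteopontin), at 199 and 62.2 in the luminal columns and 4.21 in Bsecs, had 0 reads in the larger basal column. Of 9 other laminin receptors tested, 0 passed between luminal and basal columns by edgeR, with 0 at an unadjusted p under 0.05 (25.6% of all genes). Sdc1, a heparan sulfate syndecan, was at 137 and 331 in the luminal, 1897 in Bsecs, with 301 and 121 in basal columns, and was the single one of them that was higher in Bsecs than in basal (3.19 ± 0.66, SE; edgeR adjusted p = 0.00152) and luminal columns (3.04 ± 0.66, SE; edgeR adjusted p = 0.00345).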
